A study of Arabidopsis thaliana with 35 samples.

Results

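RNA of Arabidopsis thaliana seedlings after 1 d of cold was compared with RNA of seedlings that had received no cold, called NV for non-vernalized. The comparison took in every nuclear gene of the deposited RNA table, which is each listed gene whose identifier is neither chloroplast (ATCG) nor mitochondrial (ATMG). That gave 18622 nuclear genes of 18779 listed. The plants were Col-0 carrying a functional FRI allele, in both groups and in every other RNA group of the series. The normal condition was 22 °C under a cycle of 16 h of light and 8 h of dark, and NV seedlings stayed in it. Whole seedlings were taken, with 2 libraries per group. The temperature of the cold, its light regime, the hour of harvest and the age of the seedlings are not given in the sources used here. The labels do not say that the libraries of a group came from separate cultures, so p-values measure only the spread between these libraries. The remaining RNA groups were kept cold for 1 h, 10 d, 20 d or 40 d, and a last group (T10) spent 10 d back in the normal condition once its 40 d of cold had ended.

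Cold acclimation is the process by which many temperate plants gain freezing tolerance during days in the cold above freezing. In Arabidopsis it is known to run partly through the CBF transcription factors, which appear early and bind the promoters of COR (cold-regulated) genes encoding hydrophilic, membrane-protecting proteins, and it is accompanied by a build-up of sugars and other compatible solutes. Vernalization is a separate and slower response, in which weeks of cold silence FLC, a repressor of flowering that a functional FRI allele keeps active.

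The deposited values are the authors' averages of normalised read counts over the libraries of a group, and the whole reads of each library were recovered from these averages. A level below is a normalised count, which is reads divided by the authors' effective library size in units of 1e+06, and the deeper library of a group is given before the shallower one. Levels are not divided by gene length and are compared only within a gene. A change is the log2 difference of 1 d of cold over NV from a limma-voom fit to all 14 RNA libraries, given ± its SE with n = 2 libraries per group. The words "rose" and "fell" are kept for genes with a limma p under 0.05 after Benjamini-Hochberg adjustment across every fitted gene. How reads shared by near-identical genes were counted, and whether strand was used, are not given in the sources used here. Values of close copies such as COR15A and COR15B, KIN1 and KIN2 or the CBF genes are uncertain to that extent.

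The cold libraries held 16.9 and 15.5 M reads (M is 1e+06) in genes whose values could be split, and the NV libraries 19.3 and 12.1 M. The 2 groups differed in how alike their own libraries were. Over 6876 nuclear genes with a mean level of at least 10, the SD of the log2 difference between libraries was 0.17 at 1 d of cold and 0.55 in NV, and 3 of these genes differed 2-fold between the cold libraries, against 456 between the NV libraries. In NV the deeper library correlated less with its own partner (r = 0.909 across genes, which are not independent replicates) than with the shallower library of 1 h of cold (r = 0.962), and the shallower NV library likewise correlated less with its partner than with the deeper library of 1 h of cold (r = 0.948). The cold pair had r = 0.991. The NV libraries also differed by gene length, with a median log2 difference of deeper over shallower of 0.25 in the third of genes with the shortest span and -0.22 in the third with the longest. The part of this length difference in the results was not tested. The fit gives all groups 1 shared spread, and with 1 weight per group instead 2001 genes rose and 2273 fell.

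Of 18619 nuclear genes tested, 2569 rose (13.8%) and 2279 fell (12.2%) after 1 d of cold. These 4848 genes, 26.0% of those tested, had all cold libraries on one side of all NV libraries, but so did 11794 genes (63.3%) whether called or not. The call held without any one of the 4 libraries for 1014 risers and 637 fallers. Without the deeper and the shallower cold library, 1303 and 1317 genes rose and 788 and 835 fell; without the NV library that was deeper, 1514 rose and 1418 fell; and without its shallower partner, 2587 rose and 2772 fell. The median change was 1.18 among risers and -1.24 among fallers, against -0.0019 over all nuclear genes tested. Changes of at least 4-fold were found in 399 risers and 495 fallers, and of at least 16-fold in 75 and 71. By size alone, without a test, 1075 genes (5.77%) were at least 2-fold higher and 1192 (6.40%) at least 2-fold lower on log2(mean + 1).

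**Figure D1:**
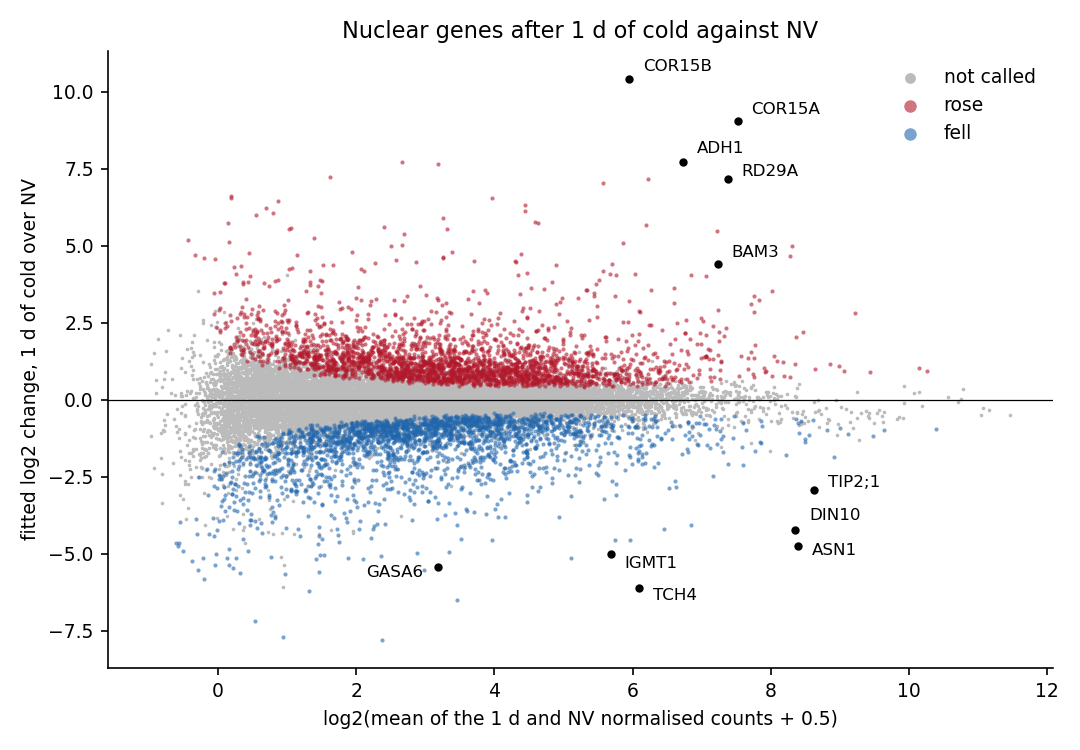
Fitted log2 change of 1 d of cold over NV (vertical) against log2 of the mean level of both groups + 0.5 (horizontal), 1 point per nuclear gene tested; red rose, blue fell, grey was not called, and black points are named genes. COR15B, COR15A, ADH1 and RD29A stood far above and ASN1, DIN10 and TIP2;1 far below 0 at high levels.

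The 12 largest rises included genes of cold protection, sugar metabolism, fermentation and the clock. COR15A and COR15B encode related chloroplast proteins known to stabilise membranes during freezing. COR15A stood at 369 and 362 after 1 d of cold, against 0.969 and 0.441 in NV. COR15B stood at 124 and 122 after 1 d of cold, against 0.0946 and 0.0588 in NV. Both genes were close to undetected in NV and abundant in each cold library, and their groups lay far apart. The fitted changes were 9.04 ± 0.47 (adjusted p 2.44e-07) for COR15A and 10.42 ± 1.07 (adjusted p 4.26e-05) for COR15B. RD29A, a hydrophilic protein induced by cold and drought, reached 283 and 374 after 1 d of cold, against 3.17 and 1.47 in NV, a change of 7.18 ± 0.44 (adjusted p 1.07e-06). KIN1, a small hydrophilic cold-induced protein, was at 47.6 and 43.9 after 1 d of cold, against 1.87 and 0.294 in NV, a change of 5.78 ± 0.54 (adjusted p 1.92e-05). The NV libraries differed several-fold from each other for KIN1, but both lay far below the cold libraries.

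Among 21 cold-regulated effector genes, 17 rose and 0 fell, with a median change of 4.65, and all 17 calls held without any one library. They included the dehydrins XERO2 (5.48), COR47 (4.66), ERD10 (4.06) and ERD14 (1.41), which bind water and membranes, the chloroplast envelope protein COR413IM1 (5.76) and the light-stress proteins ELIP1 (4.07) and ELIP2 (2.49), all given as log2 changes. COR413IM2 (0.65), SFR2 (0.47) and RD29B (-0.29) did not pass the test. Neither did RAB18, a dehydrin strongly dependent on abscisic acid, with a fitted change of -3.76. The list had 81.0% rising and 0.0% falling, against 13.8% and 12.2% over all genes. However, 1 member fell with total reads as library sizes, without the 1 h group, with 1 weight per group or with limma-trend. Members of this and the other lists outside the 90 genes chosen by rule were picked as examples after their values were seen. COR27, a cold gene tied to the clock, was at 28.05 and 31.5 after 1 d of cold, against 0.544 and 0.147 in NV, a change of 6.56 ± 0.70 (adjusted p 5.37e-05). The other members of the 12 largest rises included PDF2.1, a plant defensin, and the unnamed loci AT3G55580 and AT1G16850. PDF2.1 reached 17.8 and 16.1 after 1 d of cold, against 0.378 and 0 in NV, where 1 library held no read.

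**Figure D2:**
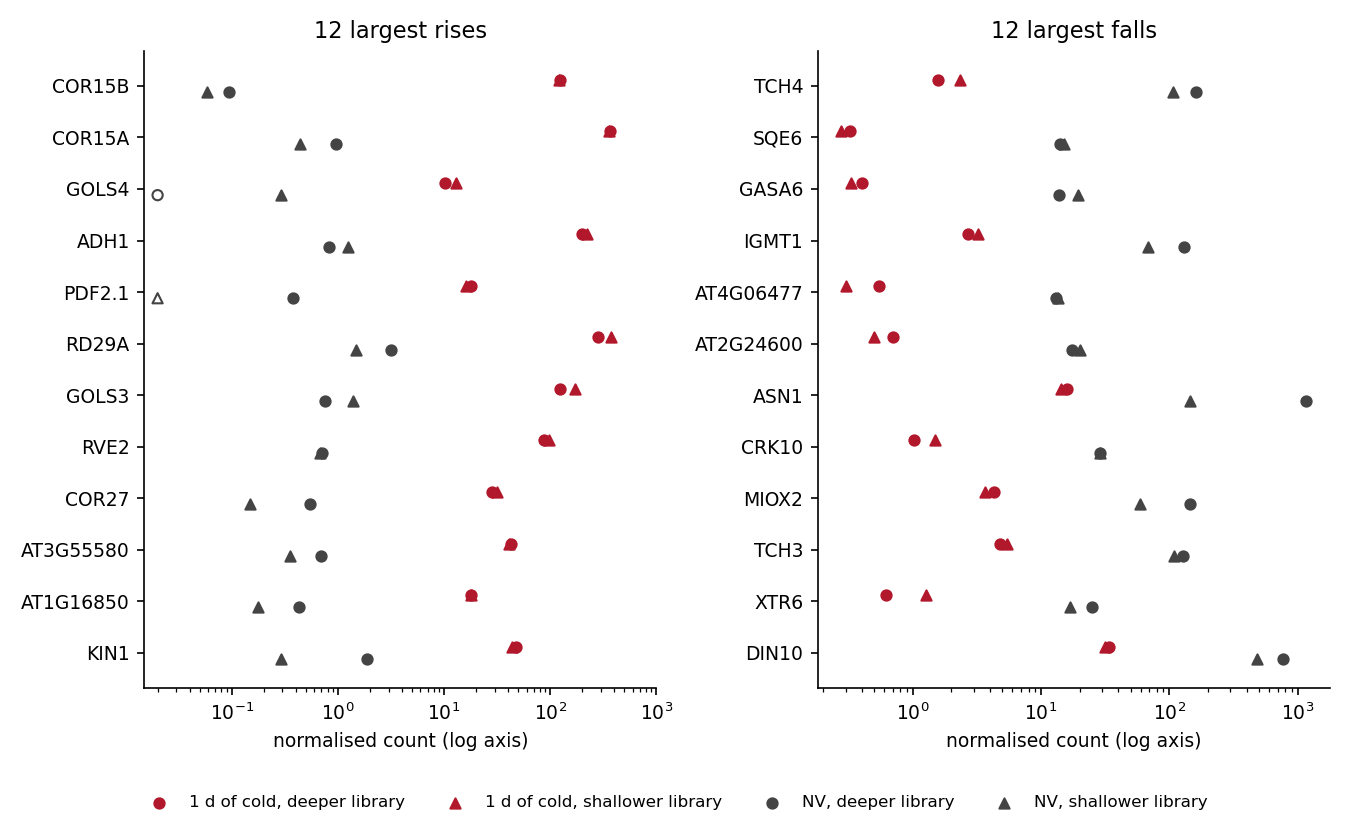
Normalised counts (log axis) in each library for the 12 largest rises (left) and the 12 largest falls (right) that passed the naming rule; red is 1 d of cold, dark grey is NV, circles are deeper and triangles shallower libraries, and open symbols at the left edge mark 0 reads. The naming rule required that the 2 cold libraries of each of these 24 genes lie on one side of the 2 NV libraries. Among the falls ASN1 spread widest within NV (1173 and 145).

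Upstream of these effectors, the CBF genes encode the transcription factors that bind COR promoters. CBF3 stood at 17.1 and 19.9 after 1 d of cold, against 0.355 and 0.411 in NV, a change of 5.56 ± 1.16 (adjusted p 0.00469). CBF2 stood at 35.4 and 48.8 after 1 d of cold, against 0.804 and 0.382 in NV, a change of 6.14 ± 2.05 (adjusted p 0.0440). CBF1 stood at 2.23 and 3.43 after 1 d of cold, against 0.189 and 0.118 in NV, a change of 4.06 ± 1.89 (adjusted p 0.134). All 3 genes were higher in both cold libraries than in both NV libraries, but CBF1 did not pass the test, and CBF2 lost its call without any one of the 4 libraries (adjusted p between 0.0865 and 0.235). Over the 22 genes of cold signalling, 6 rose and 3 fell, with a median change of 0.34; 2 rises and 1 fall held without any one library, and without either cold library 2 rose and 1 fell. Of the cold signalling genes 27.3% rose and 13.6% fell, against 13.8% and 12.2% over all genes. The protein kinase OST1 (0.87) and the bHLH factor ICE1 (0.48), both known to act upstream of CBF3, rose by small amounts. Both calls were lost without either cold library. HSFC1, a heat shock factor family member, rose at low levels, with 1.35 and 1.22 after 1 d of cold and 0.0473 and 0.0588 in NV. PIF4, a growth-promoting bHLH factor, fell to 3.23 and 3.49 after 1 d of cold, against 15.4 and 15.72 in NV, a change of -2.21 ± 0.33 (adjusted p 5.70e-04). MYB15, a repressor of CBF genes, had a fitted change of -5.44 and fell, but its call was lost without either cold library.

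Galactinol and raffinose are compatible solutes whose synthesis starts with galactinol synthase. GOLS3, a galactinol synthase, stood at 123 and 170.3 after 1 d of cold, against 0.757 and 1.38 in NV, a change of 7.17 ± 0.36 (adjusted p 2.41e-07). GOLS4, of the same family, stood at 10.1 and 12.96 after 1 d of cold, against 0 and 0.294 in NV, a change of 7.72 ± 1.52 (adjusted p 0.00337). The NV value of GOLS4 rests on 1 library, as the other held no read. Of 18 genes for raffinose, sucrose and proline, 12 rose and 1 fell, with a median change of 1.53; 10 of the rises and the fall held without any one library. Sucrose synthase SUS1, which splits sucrose, reached 224 and 276 after 1 d of cold, against 16.3 and 14.5 in NV, a change of 4.01 ± 0.18 (adjusted p 1.84e-07). Sucrose-phosphate synthase SPS2F, a step in making sucrose, reached 68.2 and 88.1 after 1 d of cold, against 9.17 and 5.99 in NV, a change of 3.37 ± 0.24 (adjusted p 3.47e-06). P5CS2, which makes the proline precursor, rose by 2.33, and ERD5, a proline dehydrogenase that breaks proline down, fell by 2.097, both on the log2 scale. In the list of 18 genes 66.7% rose and 5.6% fell, against 13.8% and 12.2% over all genes.

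Starch breakdown genes changed unevenly, with 5 of 15 rising (33.3%) and 1 falling (6.7%), against 13.8% and 12.2% over all genes (median change 0.27). BAM3, the main chloroplast beta-amylase, stood at 257 and 314 after 1 d of cold, against 10.97 and 16.2 in NV, a change of 4.42 ± 0.23 (adjusted p 2.44e-07). PHS2, the cytosolic glucan phosphorylase, rose by 1.78 and SEX1, which phosphorylates starch, by 1.401. PHS1, the plastidial phosphorylase, fell to 15.6 and 18.4 after 1 d of cold, against 34.2 and 51.3 in NV, a change of -1.31 ± 0.23 (adjusted p 0.00157). BAM1, DPE2 and AMY3, enzymes of the same pathway, had changes of 0.01, -0.06 and 0.31 and did not pass the test.

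Both fermentation genes of the list rose. ADH1, alcohol dehydrogenase, stood at 202 and 220.4 after 1 d of cold, against 0.827 and 1.23 in NV, a change of 7.71 ± 0.37 (adjusted p 1.97e-07). PDC1, pyruvate decarboxylase, stood at 129 and 157 after 1 d of cold, against 2.81 and 2.704 in NV, a change of 5.68 ± 0.26 (adjusted p 1.97e-07). Both NV libraries were near the bottom of the range for these genes, and the groups did not overlap, which the naming rule required of ADH1. HB1, a non-symbiotic haemoglobin, rose by 1.28. In the 13 genes of low oxygen and antioxidants, 4 rose (30.8%) and 1 fell (7.7%), against 13.8% and 12.2% over all genes. The fall was that of the catalase CAT2 (-1.14), and SUS4, CSD1, FSD1 and AOX1A did not pass the test. ADH1 belongs to the cold-regulated list as well.

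Of 11 nitrogen assimilation genes, 4 rose and 2 fell. NRT2.1, a high-affinity nitrate transporter, stood at 18.8 and 18 after 1 d of cold, against 2.81 and 4.41 in NV, a change of 2.404 ± 0.25 (adjusted p 4.56e-05). NIA1, a nitrate reductase, stood at 237 and 274 after 1 d of cold, against 44.4 and 80.6 in NV, a change of 2.09 ± 0.31 (adjusted p 5.58e-04). The dual-affinity transporter NRT1.1 rose by 1.51. ASN1, an asparagine synthetase, fell by 4.74, and GDH1, a glutamate dehydrogenase, by 1.02. The call of GDH1 was lost without the deeper cold library. NRT2.1 is chiefly a root gene and is itself in the list of 20 root markers. The summed levels of that list were 1898 and 2014 after 1 d of cold and 1353 and 1946 in NV. Of its members 8 rose (40.0%, against 13.8% over all genes) and 0 fell (median 0.35). Of these 8, 2 held without any one library, and between 3 and 7 rose when 1 library was left out. NRT2.1 and the expansin gene EXPA18 were the markers that held. The part of root RNA in the NRT2.1 result was not tested. In whole seedlings, fewer cells of a type and less RNA per cell cannot be told apart. No root marker and no antenna or photosystem gene was at 0 in any of the 4 libraries, and the tissue is labelled as seedling.

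Genes of the circadian clock rose widely, with 23 of 31 rising (74.2%) and 1 falling (3.2%), against 13.8% and 12.2% over all genes. The median change was 1.74. Among them were morning genes and evening genes. CCA1, a MYB factor of the morning, stood at 95.7 and 107 after 1 d of cold, against 4.63 and 8.17 in NV, a change of 4.06 ± 0.26 (adjusted p 1.52e-06). Its close relative LHY stood at 53.5 and 50.4 after 1 d of cold, against 2.34 and 6.17 in NV, a change of 3.82 ± 0.35 (adjusted p 1.89e-05). In both genes the cold libraries lay many times above both NV libraries. TOC1, an evening repressor of the core clock, stood at 57.2 and 64.9 after 1 d of cold, against 13.5 and 15.1 in NV, a change of 2.097 ± 0.16 (adjusted p 6.13e-06). RVE2, a MYB factor of the CCA1 family, stood at 88.1 and 97.7 after 1 d of cold, against 0.709 and 0.676 in NV, a change of 7.04 ± 0.87 (adjusted p 1.61e-04). RVE1 (4.41), the light-signalling F-box gene FKF1 (4.47) and the histone demethylase gene JMJ30 (4.37) also rose on the log2 scale. CHE, a TCP factor, fell (-1.72), but its call was lost without either cold library and without the deeper NV library. PRR7 and ZTL did not pass the test. Of the 23 rises, 16 held without any one library, and since the hour of harvest is not given, the phase of the day and the cold cannot be told apart.

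Ribosome assembly genes, which build the ribosomal subunits in the nucleolus, were called in one direction. The share that rose was 83.9% and the share that fell 0.0%, against 13.8% and 12.2% over all genes. Of 31 genes, 26 rose and 0 fell, with a median change of 1.22, and 15 of the calls held without any one library. SWA1, which processes 18S ribosomal RNA in the nucleolus, stood at 64.7 and 57.1 after 1 d of cold, against 18.9 and 12.1 in NV, a change of 1.998 ± 0.19 (adjusted p 2.09e-05). Fibrillarin FIB2 stood at 37.4 and 36.1 after 1 d of cold, against 8.13 and 15.2 in NV, a change of 1.74 ± 0.28 (adjusted p 9.60e-04). The RNA-binding nucleolar protein APUM24 (1.72) and pescadillo PES (1.42) rose as well. The NV libraries themselves differed in this list, with a median log2 difference of deeper over shallower of -0.62 over its members, and summed levels of 1251 and 1271 after 1 d of cold against 492 and 673 in NV. Without the deeper NV library 16 members rose, without the shallower 29, and without the cold libraries 18 and 16; no member fell in any of these fits.

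**Figure D3:**
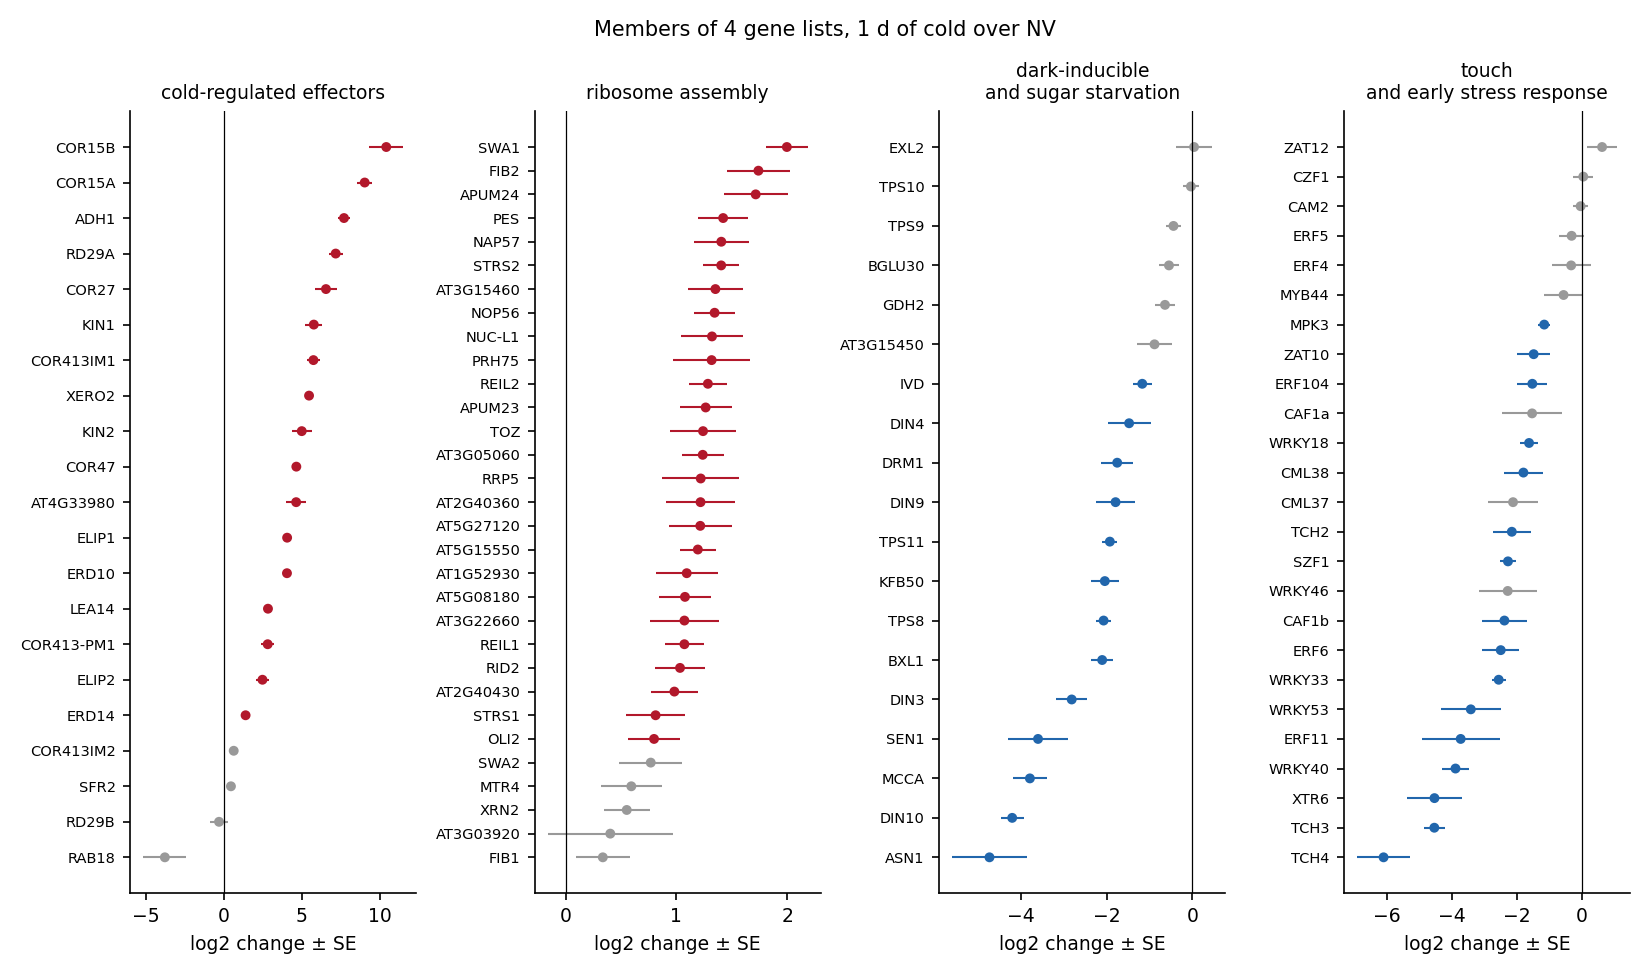
Fitted log2 change of 1 d of cold over NV (horizontal, bars are ± 1 SE) for each tested member of 4 gene lists, sorted; red rose, blue fell, grey was not called. The cold-regulated list ranges from COR15B (10.42) to RAB18 (-3.76), ribosome assembly lies between 0.34 and 2.00, and the starvation and touch lists reach -4.74 and -6.09.

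The 12 largest falls included genes of touch, sugar starvation and cell walls. TCH4, a xyloglucan endotransglucosylase/hydrolase induced by touch, stood at 1.58 and 2.33 after 1 d of cold, against 160.4 and 107 in NV, a change of -6.09 ± 0.82 (adjusted p 2.73e-04). TCH3, a calmodulin-like protein induced by touch, stood at 4.75 and 5.43 after 1 d of cold, against 128 and 108 in NV, a change of -4.53 ± 0.31 (adjusted p 2.59e-06). Of 25 touch and early stress genes, 16 fell and 0 rose, with a median change of -2.12, and 8 of the falls held without any one library; without either cold library 8 fell, without the NV library that was deeper 10, and without its partner 16. The share of the list that fell was 64.0% and the share that rose 0.0%, against 12.2% and 13.8% over all genes. The transcription factors WRKY40 (-3.88) and WRKY33 (-2.56) were among the falls, and ZAT12 (0.61) did not pass the test. TCH4 and XTR6, another gene of that enzyme family, are in the cell wall list too.

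In that list of 24 XTH and expansin genes, 12 fell and 4 rose, with a median change of -1.33. The 4 rises were 16.7% of the list, close to the 13.8% over all genes. The 12 falls were a larger share of the list than the 12.2% over all genes. XTH24 fell to 9.76 and 11.5 after 1 d of cold, against 129 and 64.7 in NV, a change of -3.103 ± 0.49 (adjusted p 8.07e-04). XTH20, of the same enzyme family, rose to 78.3 and 79.1 after 1 d of cold, against 9.197 and 5.41 in NV, a change of 3.46 ± 0.27 (adjusted p 6.42e-06). EXPA4, EXPA8 and EXPA6, expansins that loosen walls, fell by 2.04, 1.79 and 1.68, and EXPA10 rose by 1.99.

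Among 19 dark-inducible and sugar starvation genes, 13 fell (68.4%) and 0 rose, against 12.2% and 13.8% over all genes. The median change was -1.79. ASN1, asparagine synthetase, stood at 16.01 and 14.3 after 1 d of cold, against 1173 and 145 in NV. The NV libraries differed widely from each other, but both lay far above the cold ones, and the change was -4.74 ± 0.87 (adjusted p 0.00211). DIN10, a raffinose synthase family member induced in the dark, stood at 33.8 and 31.4 after 1 d of cold, against 764 and 481 in NV, a change of -4.21 ± 0.27 (adjusted p 1.52e-06). MCCA, of leucine breakdown, fell by 3.797 and SEN1 by 3.61 on the log2 scale. Without the deeper NV library the change of ASN1 was -3.26 (adjusted p 0.0138).

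Other large falls lay outside the lists or in small families. GASA6, a gibberellin-regulated peptide, stood at 0.4003 and 0.332 after 1 d of cold, against 13.9 and 19.6 in NV, a change of -5.43 ± 0.53 (adjusted p 2.71e-05). IGMT1, which methylates indole glucosinolates, stood at 2.68 and 3.21 after 1 d of cold, against 129 and 68.8 in NV, a change of -5.002 ± 0.34 (adjusted p 2.33e-06). MIOX2, a myo-inositol oxygenase, stood at 4.28 and 3.68 after 1 d of cold, against 145 and 59.7 in NV, a change of -4.53 ± 0.48 (adjusted p 5.04e-05). For IGMT1 and MIOX2 the deeper NV library was the higher of its pair, and for GASA6 the shallower one. SQE6, named for squalene epoxidase, fell to 0.325 and 0.277 after 1 d of cold, against 14.1 and 15.02 in NV. The receptor-like kinase gene CRK10 fell to 1.03 and 1.495 after 1 d of cold, against 29.01 and 29.1 in NV. The NV libraries of SQE6 and CRK10 were close to each other. The loci without a symbol, AT4G06477 and AT2G24600, fell by 4.96 and 4.94 on the log2 scale.

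Of 18 aquaporin genes, 9 fell and 2 rose (median -0.77). The 2 rises were 11.1% of the list, below the 13.8% over all genes. The 9 falls were a larger share of the list than the 12.2% over all genes. TIP2;1, a vacuolar water channel, stood at 89.05 and 85.6 after 1 d of cold, against 917 and 485 in NV, a change of -2.92 ± 0.39 (adjusted p 2.60e-04). PIP1A and PIP2A, plasma membrane channels, fell by 1.73 and 1.27. Of the 9 falls, 4 held without any one library; without the shallower NV library 10 members fell, and without each of the other libraries 4 or 5. The root-expressed PIP2;5 rose by 1.202, but no aquaporin rise held without the shallower cold library or without the shallower NV library.

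Of 23 jasmonate genes tested, 9 fell (39.1%) and 1 rose (4.3%), against 12.2% and 13.8% over all genes (median -1.03). LOX4, a lipoxygenase that begins jasmonate synthesis, stood at 1.88 and 0.692 after 1 d of cold, against 22.7 and 16.8 in NV, a change of -4.05 ± 0.42 (adjusted p 4.79e-05). LOX3, of the same family, stood at 1.45 and 1.02 after 1 d of cold, against 11.3 and 7.08 in NV, a change of -2.87 ± 0.54 (adjusted p 0.00252). The factor MYC2 and the repressor JAZ6 fell by 1.77 and 1.93. Without the shallower NV library 15 members fell, and without each of the other libraries 4.

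Of 31 antenna and photosystem genes tested, 5 fell (16.1%) and 0 rose (median -0.59). Of 14 carbon fixation genes 3 fell (21.4%, median -0.44), and of 11 chlorophyll synthesis genes 2 fell (18%), against 12.2% over all genes. PETE1, a plastocyanin, stood at 12.03 and 12.3 after 1 d of cold, against 69.7 and 32.5 in NV, a change of -1.97 ± 0.39 (adjusted p 0.00350). RCA, the activase of rubisco, stood at 541 and 530.3 after 1 d of cold, against 1075 and 1040.2 in NV, a change of -0.98 ± 0.21 (adjusted p 0.00571). The antenna sums were 17010 and 16420 after 1 d of cold and 33060 and 16870 in NV, and without the shallower NV library 20 members fell, but 1 without its deeper partner, 2 without the deeper cold library and 1 without the shallower cold library. Carbon fixation had 5 falls without the shallower NV library, 3 without the deeper and 2 without either cold library, and chlorophyll synthesis had 2 falls without either NV library and 1 and 0 without the deeper and the shallower cold library. The number of falls in the antenna list thus depended on which NV library was used.

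Of 24 phenylpropanoid and flavonoid genes tested, 10 rose (41.7%) and 3 fell (12.5%), against 13.8% and 12.2% over all genes (median 0.24). PAL2, the entry enzyme, stood at 578 and 574 after 1 d of cold, against 95.5 and 164 in NV, a change of 2.2 ± 0.33 (adjusted p 5.52e-04). UGT78D2, which glycosylates flavonols, rose by 2.096, and HYH, a light-signalling bZIP factor, by 3.68. DFR, the dihydroflavonol reductase of the anthocyanin branch, fell to 0.3002 and 0.554 after 1 d of cold, against 4.56 and 3.97 in NV, a change of -3.36 ± 0.61 (adjusted p 0.00203). LDOX and UF3GT, of the same branch, fell by 2.59 and 2.36, while CHS (0.20) did not pass the test. Without either cold library or the deeper NV library, 6 members rose; 1 fell without the deeper cold library and 4 without the shallower NV library.

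In the membrane lipid list 5 of 15 rose (33.3%) and 0 fell, against 13.8% and 12.2% over all genes (median 0.25). ADS2, a desaturase known for cold acclimation, stood at 172 and 178 after 1 d of cold, against 45.5 and 33.9 in NV, a change of 2.16 ± 0.27 (adjusted p 1.60e-04). AZI1, a lipid-transfer-like protein, rose by 3.62. FAD2, FAD5, FAD6, FAD7 and FAD8, fatty acid desaturases, had changes between -0.89 and 0.25 and did not pass the test.

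RNA chaperones and splicing factors gave 4 rises and 3 falls in 27 genes (14.8% and 11.1%, median 0.04), close to the 13.8% and 12.2% over all genes. With either cold library or the shallower NV library left out, 2 rose. Leaving out the shallower NV library gave 5 falls, and each other library 1. The glycine-rich RNA-binding protein GRP7 stood at 168 and 177 after 1 d of cold, against 14.99 and 25.9 in NV, a change of 3.14 ± 0.52 (adjusted p 0.00108). CSP1 and CSP3, cold shock domain proteins, had changes of 0.41 and 0.34 and did not pass the test. SCL33, an SR splicing factor, fell by 1.97. Of 16 heat shock genes tested, 3 rose and 2 fell (median -1.40), but 0 fell with either cold library or the deeper NV library left out, and 6 fell without the shallower NV library. The shares of the heat shock list were 18.8% and 12.5%, against 13.8% and 12.2% over all genes. AT3G09440, a locus of that list, stood at 508 and 549 after 1 d of cold, against 159.8 and 104 in NV, a change of 2.04 ± 0.40 (adjusted p 0.00302). HSC70-1, a constitutive chaperone, stood at 1604 and 1626 after 1 d of cold, against 841 and 827 in NV, a change of 0.95 ± 0.19 (adjusted p 0.00336).

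Of 17 abscisic acid genes tested, 5 rose (29.4%) and 2 fell (11.8%), against 13.8% and 12.2% over all genes. The factor ABF1 stood at 54.6 and 54.6 after 1 d of cold, against 4.75 and 7.85 in NV, a change of 3.18 ± 0.31 (adjusted p 2.73e-05). Of these genes 2 rose without either cold library or the shallower NV library, 1 fell without either cold library and 0 without the deeper NV library. Of 14 gibberellin genes 1 rose (7.1%) and 4 fell (28.6%), and with either cold library or the deeper NV library left out 2 fell. The rise was lost without the shallower cold library and again without the deeper NV library. GA2OX2, which inactivates gibberellin, stood at 0.2502 and 0.498 after 1 d of cold, against 2.44 and 3.14 in NV, a change of -2.93 ± 0.50 (adjusted p 0.00142). Among 23 genes of auxin, brassinosteroid and cytokinin, 3 rose (13%) and 2 fell (8.7%); 0 rose without the shallower cold library, and 3 fell without the shallower NV library and 1 without each of the others. Of 18 cell cycle genes 1 rose and 1 fell (5.6% each); 7 rose without the shallower NV library and 0 without each of the others, and 1 fell without the deeper NV library and 0 without each of the others.

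Of 28 flowering genes tested, 4 rose (14.3%, against 13.8% over all genes) and 1 fell (3.6%, against 12.2%). Between 2 and 6 rose when 1 library was left out, and the fall was lost without either cold library or the deeper NV library. FLC, the vernalization target, stood at 19.1 and 20.9 after 1 d of cold, against 17.8 and 16.9 in NV, a change of 0.204 ± 0.17 (adjusted p 0.403). Both cold libraries lay slightly above both NV libraries, and the gene did not pass the test. VIN3, which is needed for FLC silencing, had 2 and 12 reads after 1 d of cold and 2 and 0 in NV. The ratio of its pooled reads, scaled by library size, was 7.02, with a 95% counting interval of 1.61 to 63.7. That interval leaves out the spread between libraries, and most cold reads came from the shallower library. VIN3 did not pass the test (adjusted p 0.354). SOC1, an activator of flowering, stood at 3.03 and 1.72 after 1 d of cold, against 0.0473 and 0.4702 in NV, a change of 3.89 ± 0.88 (adjusted p 0.00748); it lost its call without the deeper NV library. SMZ, a repressor of flowering, rose by 1.53. FRI itself, the gene whose functional allele all groups carry, had a change of 0.58 and did not pass the test.

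**Figure D4:**
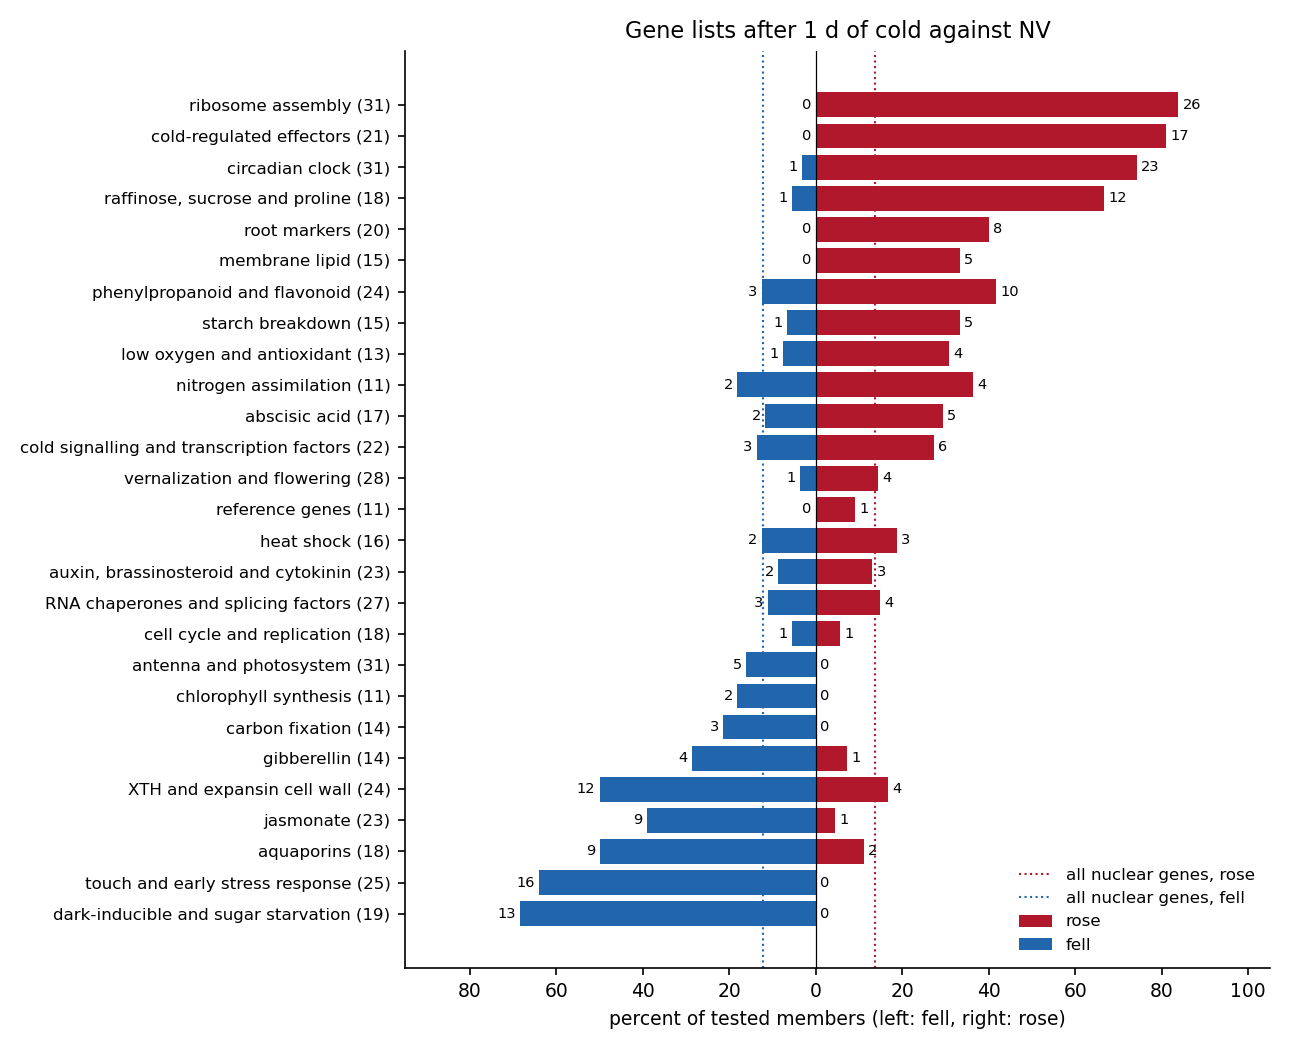
Percent of tested members of each of 27 gene lists that rose (right, red) or fell (left, blue) after 1 d of cold against NV, with counts at the bars and the number tested in brackets; dotted lines mark the share over all nuclear genes (13.8% and 12.2%). Ribosome assembly, cold-regulated and clock lists lie furthest right, and starvation and touch lists furthest left.

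Of 11 reference genes, 1 rose (9.1%) and 0 fell, against 13.8% and 12.2% over all genes (median -0.05). So few genes, with 2 libraries per group, cannot check the scaling. UBQ10, a common reference, stood at 519.8 and 566 after 1 d of cold, against 723 and 720.3 in NV, a change of -0.41 ± 0.15 (adjusted p 0.0669). GAPC1, a glycolytic enzyme also used as a reference, stood at 898 and 899.9 after 1 d of cold, against 461 and 502 in NV, and rose by 0.901.

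The direct contrasts of 1 d with its neighbours in time did not use the NV means, but they reused the 1 d libraries. Naming genes by their change at 1 d favours a 1 d mean that stands apart from its neighbours. The NV libraries also entered the shared spread. The 1 h libraries were the least alike of any group, with an SD of the log2 difference of 0.71 and 986 genes 2-fold apart, so contrasts with 1 h rest on an uneven pair. Over all nuclear genes 1690 (9.08%) were higher and 1701 (9.14%) lower at 1 d than at 1 h, and 2086 (11.2%) higher and 1377 (7.40%) lower at 1 d than at 10 d. COR15A averaged 0.705, 1.16, 366, 479, 606, 699 and 11.5 in the order NV, 1 h, 1 d, 10 d, 20 d, 40 d and T10, an order kept for every set of averages that follows. It was higher at 1 d than at 1 h, by 9.16 ± 0.45 (adjusted p 3.51e-07), and its difference from 10 d was -0.39 ± 0.23 (adjusted p 0.261). GOLS3 averaged 1.07, 0.5604, 147, 28.9, 53.3, 79.2 and 2.26, and was higher at 1 d than at 1 h, by 7.85 ± 0.50 (adjusted p 1.26e-06), and than at 10 d, by 2.33 ± 0.20 (adjusted p 1.99e-05). KIN1 averaged 1.08, 1.75, 45.8, 107, 259, 349 and 1.53, with a difference of 1 d from 10 d of -1.21 ± 0.25 (adjusted p 0.00635). COR15A and KIN1 thus had their highest means at 40 d and GOLS3 at 1 d.

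PDC1, NRT2.1 and SWA1 had their highest mean at 1 d and were higher there than at both neighbours. PDC1 averaged 2.76, 6.905, 143, 18.9, 27.6, 20.98 and 1.72, with differences of 1 d from 1 h and from 10 d of 4.28 ± 0.23 (adjusted p 7.07e-07) and 2.91 ± 0.20 (adjusted p 6.61e-06). NRT2.1 averaged 3.61, 4.05, 18.4, 1.92, 3.15, 3.56 and 1.81, with differences of 2.104 ± 0.26 (adjusted p 2.00e-04) and 3.26 ± 0.29 (adjusted p 3.59e-05). SWA1 averaged 15.5, 19.7, 60.9, 26.97, 18.5, 21.5 and 10.6, with differences of 1.64 ± 0.19 (adjusted p 1.29e-04) and 1.17 ± 0.18 (adjusted p 0.00112).

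CBF3 averaged 0.383, 11.4, 18.5, 5.45, 3.85, 1.896 and 1.67. Its difference of 1 d from 10 d was 1.76 ± 0.50 (adjusted p 0.0282) and from 1 h 1.15 ± 0.48 (adjusted p 0.123), the second not past the threshold. The 1 h mean of CBF3 joins libraries at 5.53 and 17.2. CBF1 and CBF2 instead had their highest mean at 1 h, 10.4 and 49.1, against 2.83 and 42.1 at 1 d. Their differences of 1 d from 1 h did not pass (adjusted p 0.641 and 0.680). CCA1 averaged 6.402, 5.63, 101.3, 85.1, 115, 85.2 and 39.5, and was higher at 1 d than at 1 h, by 4.097 ± 0.28 (adjusted p 3.11e-06), while its difference from 10 d, 0.25 ± 0.23 (adjusted p 0.481), did not pass. FLC averaged 17.3, 20.3, 20.01, 26.3, 19.5, 8.38 and 5.53, and its differences from 1 h and 10 d, -0.04 ± 0.17 (adjusted p 0.910) and -0.396 ± 0.17 (adjusted p 0.116), did not pass. The FLC means were lowest at 40 d and T10.

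Among the falls, ASN1 averaged 659, 598, 15.1, 318, 88.96, 54 and 220.4, with a difference of 1 d from 10 d of -4.395 ± 0.86 (adjusted p 0.00441). Its 1 h average joins libraries at 143 and 1052. SEN1 and MCCA, of the same list, also had their lowest mean at 1 d, but DIN10 had its lowest at 40 d. The summed levels of that list were 894 and 869 at 1 d, and lower at 40 d (558 and 675). A lowest mean at 1 d was thus not shared by the whole list. TCH3 averaged 118, 204, 5.09, 12.6, 11.1, 24.6 and 48.3, with a difference of 1 d from 1 h of -5.21 ± 0.32 (adjusted p 1.09e-06). GASA6 averaged 16.7, 13.8, 0.366, 0.487, 0.825, 1.14 and 27.4, and IGMT1 averaged 99.1, 149, 2.94, 8.92, 6.44, 6.03 and 69.6. Both were low in every cold group from 1 d to 40 d and higher at T10.

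**Figure D5:**
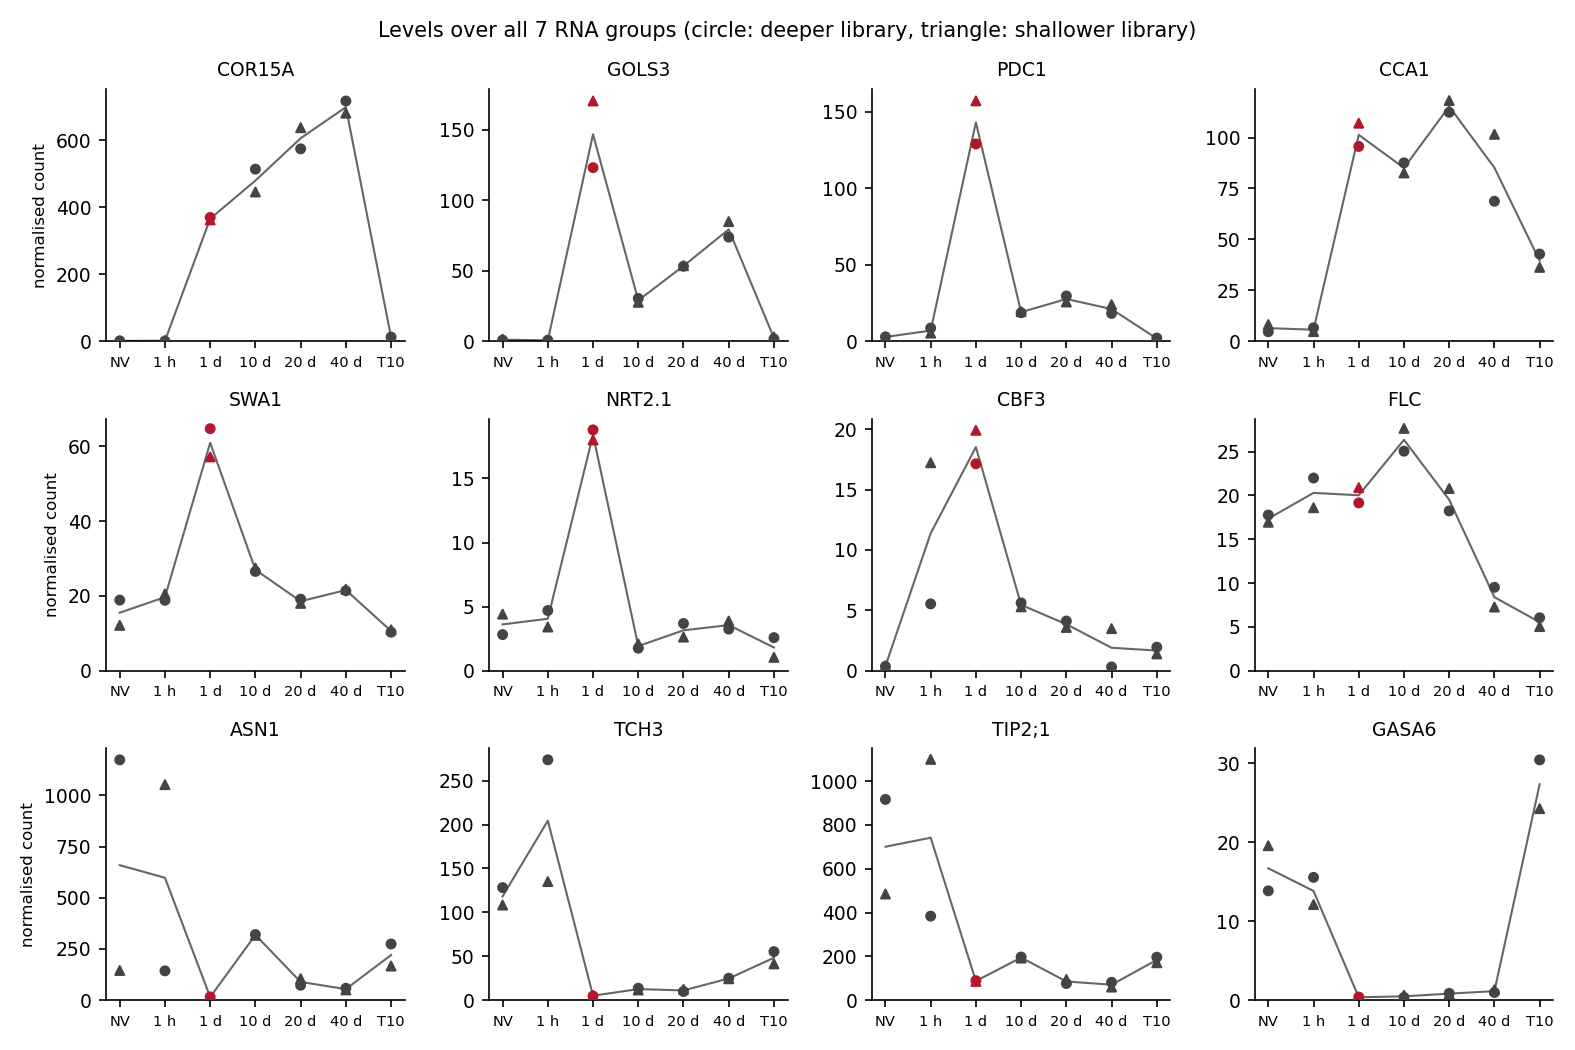
Normalised counts (linear axis from 0) for 12 genes in all 7 RNA groups, in order of time from NV to T10; circles are deeper and triangles shallower libraries, the line joins the group means, and 1 d is red. PDC1, SWA1, NRT2.1, GOLS3 and CBF3 have their highest mean at 1 d, ASN1 and TCH3 their lowest, and the COR15A mean is higher still up to 40 d.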

How the data were processed

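RNA libraries were made with a stranded kit from total RNA after removal of ribosomal RNA, per the labels' protocols. The deposited table holds a signal: the authors' normalised counts averaged over the libraries of a group. TopHat, edgeR and the build TAIR10 are named in the submitters' processing notes, without versions or settings. Each value was the sum of whole multiples of 2 steps, 1 per library; between 99.95% and 99.98% of values per column had exactly 1 solution at a relative tolerance of 1e-12, which gave whole reads for 14 libraries. The table carries no replicate numbers, so libraries are called deeper and shallower. limma 3.58.1 with voom was fitted to log2 normalised reads of the 14 libraries, with the deposited scaling, and p-values were adjusted by Benjamini-Hochberg over 18766 genes, of which 18619 are nuclear. The 3 nuclear genes whose values could not be split were left out. The method was tested on simulated data.

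Named genes were the 12 largest rises and falls that passed the threshold, kept it without any one library, did not overlap and had a mean of at least 10 in the higher group; up to 4 members of each of 27 gene lists that kept their call; and 13 genes by name, 90 in all. Members, lists and tests were chosen with earlier results of these data known. Gene symbols come from the RefSeq table of TAIR10.1, which matched 99.94% of nuclear identifiers. List members without a fitted value were not tested. Promoter sequences and motifs were not used here, and neither were the 18 histone mark peak lists. Alternatives changed the library sizes, the libraries in the fit, the weights, the filter and the pseudocount.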

Additional observations from a re-analysis of the deposited data

How the results depend on the processing

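With the 4 libraries of 1 d of cold and NV alone, 1530 genes rose and 1297 fell, against 2569 and 2279. Leaving out 1 library at a time gave between 1303 and 2587 rises and between 788 and 2772 falls. By size alone, with a pseudocount of 0.1 in place of 1, 1648 genes were higher and 1826 lower, and with 5, 472 and 464, against 1075 and 1192. The other alternatives, which were total reads or median of ratios as library sizes, no 1 h group, 1 weight per group, limma-trend and a minimum of 10 reads in 2 libraries, gave 1738 to 3232 rises and 1726 to 3027 falls. The median log2 change over all nuclear genes ranged from -0.0019 to 0.030 across scalings. Of 90 named genes 86 were called, and 84 kept the call under all 11 alternatives; CBF2 and SOC1 did not. CBF2 lost it with 1 weight per group and without any one library, and SOC1 with 1 weight per group and without the deeper NV library. Of the 4 named genes not called, CBF1 passed in 3 alternatives and UBQ10 in 1. No change of a called named gene reversed its direction. Genes not taken by name were named only if called and if call and direction held without any one library. These counts of named genes were thus largely set by the naming rule and are no check on the calls. No paired analysis was possible because the deposited table gives group averages and the recovered libraries carry no replicate numbers. Depth limits genes with few reads, such as VIN3, whose NV value rests on 2 reads.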
